A study of Mus musculus with 8 samples.

Results

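The genes examined here are 53 genes of DNA replication, mitosis and cell cycle control, followed in group 2 innate lymphoid cells (ILC2s) from mouse lung. They were taken by gene name from a table of 22075 genes, and each was found in 1 row. Of them, 22 act in DNA replication, 16 in mitosis, and 15 are cyclins, cyclin-dependent kinases (CDKs), CDK inhibitors and the retinoblastoma gene. The series compared ILC2s with and without STAT3, a cytokine-activated transcription factor, by their mRNA, with and without IL-33, the alarmin that activates these cells. All ILC2s came from lungs of C57BL/6 mice that had been exposed briefly to papain, an airway irritant, and all were first grown for about 5 days with IL-2 at 10 ng/ml. The first group was STAT3-KO cells (from VavicreStat3fl/fl mice, in which a Cre active in blood cells removes the floxed gene) given IL-33 at 10 ng/ml for 2 more days. The second was WT cells, which the labels tie by implication to Stat3fl/fl mice without Cre, given the same IL-33. The remaining groups were STAT3-KO control cells and WT control cells, for which the labels give no treatment beyond the word control. The labels do not say whether control cells were also kept for 2 more days. Effects of IL-33 and of longer culture therefore cannot be told apart in any IL-33 response below. Each of the 4 groups had 2 libraries. The labels do not say whether these came from separate mice or cultures, so p-values measure only the spread between these libraries. Loss of STAT3 and presence of Vavicre cannot be told apart, since the WT mice are those without Cre.

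A dividing cell copies its DNA once, in S phase, and separates the copies in mitosis. Origins are licensed when the origin recognition complex, Cdc6 and Cdt1 load the Mcm2 to Mcm7 helicase; Cdc45 and the GINS complex activate it, and DNA polymerases then copy the strands. Cyclins D, E, A and B act in turn with CDKs to drive these steps, while inhibitors such as p21 and p27, and the retinoblastoma protein, hold them back. Many S phase genes are controlled by E2F factors, and many mitotic genes by the MuvB complex at a short promoter element called the CHR, often with CCAAT boxes nearby. ILC2s divide in response to IL-2 and IL-33.

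Promoter sequences are shown for a pair of replication genes and a pair of mitotic genes, with the motifs of each class marked. The windows are RefSeq sequences on GRCm38.p6, from 250 bases before to 50 bases after the transcription start, and 40 of the 53 members were in the RefSeq table. Mcm5 and Mcm6 encode subunits of the replicative helicase. Their windows lie at chr8:75109259-75109558 on the plus strand and chr1:128359656-128359955 on the minus strand, and capitals mark matches to the E2F-type motif TTTNNCGC on either strand, which overlap in places.
Mcm5: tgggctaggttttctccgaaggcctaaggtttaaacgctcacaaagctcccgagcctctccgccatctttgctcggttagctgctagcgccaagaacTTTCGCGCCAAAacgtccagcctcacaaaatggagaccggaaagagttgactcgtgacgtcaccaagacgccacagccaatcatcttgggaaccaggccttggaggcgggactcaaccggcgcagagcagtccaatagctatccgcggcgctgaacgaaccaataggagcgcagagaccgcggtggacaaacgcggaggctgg
Mcm6: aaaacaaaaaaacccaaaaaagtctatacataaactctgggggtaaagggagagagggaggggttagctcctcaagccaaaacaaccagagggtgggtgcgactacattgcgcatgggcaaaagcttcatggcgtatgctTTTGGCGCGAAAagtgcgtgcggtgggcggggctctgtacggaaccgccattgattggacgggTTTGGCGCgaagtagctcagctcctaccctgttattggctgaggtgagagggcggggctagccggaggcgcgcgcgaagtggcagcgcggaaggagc
Kif11 encodes a spindle motor and Top2a the topoisomerase that untangles sister chromatids. Their windows lie at chr19:37376132-37376431 on the plus strand and chr11:99024140-99024439 on the minus strand, and capitals mark the CHR motif TTTGAA and the CCAAT box, on either strand.
Kif11: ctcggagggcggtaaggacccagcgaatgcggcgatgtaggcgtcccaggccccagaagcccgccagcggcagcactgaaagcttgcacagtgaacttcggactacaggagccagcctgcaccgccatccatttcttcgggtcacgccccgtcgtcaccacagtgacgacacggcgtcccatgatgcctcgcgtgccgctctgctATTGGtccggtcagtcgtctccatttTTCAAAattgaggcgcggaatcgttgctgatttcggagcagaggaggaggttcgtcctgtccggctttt
Top2a: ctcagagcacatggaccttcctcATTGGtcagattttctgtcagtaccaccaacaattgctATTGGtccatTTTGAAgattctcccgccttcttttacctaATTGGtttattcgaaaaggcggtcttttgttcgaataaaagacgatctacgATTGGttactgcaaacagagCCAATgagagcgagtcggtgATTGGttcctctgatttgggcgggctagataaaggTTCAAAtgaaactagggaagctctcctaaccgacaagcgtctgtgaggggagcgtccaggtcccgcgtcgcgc
The E2F-type motif was present in 9 of 18 replication promoters, in 0 of 12 mitotic promoters and in 2 of 10 promoters of cyclins, CDKs and inhibitors (20.0%), against 5.27% of all 27025 promoters. In the wider lists it was present in 12 of 40 promoters of other replication genes (30.0%) and in 9 of 48 of other mitotic genes (18.8%), so its absence from the 12 mitotic members did not extend to other mitotic genes. The CHR motif was present in 8 of 12 mitotic promoters (66.7%), in 3 of 18 replication promoters (16.7%) and in 2 of 10 promoters of the third class (20.0%), against 18.1% of all promoters. Other mitotic genes had it in 66.7% and other replication genes in 6 of 40 promoters. CCAAT boxes occurred in 11 of 12 mitotic promoters (91.7%), 12 of 18 replication promoters (66.7%) and 4 of 10 of the third class (40.0%), against 37.9% of all. They occurred in 62.5% of other mitotic and 50% of other replication promoters. A match is a description of these letters and not a measured binding site.

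**Figure D1:**
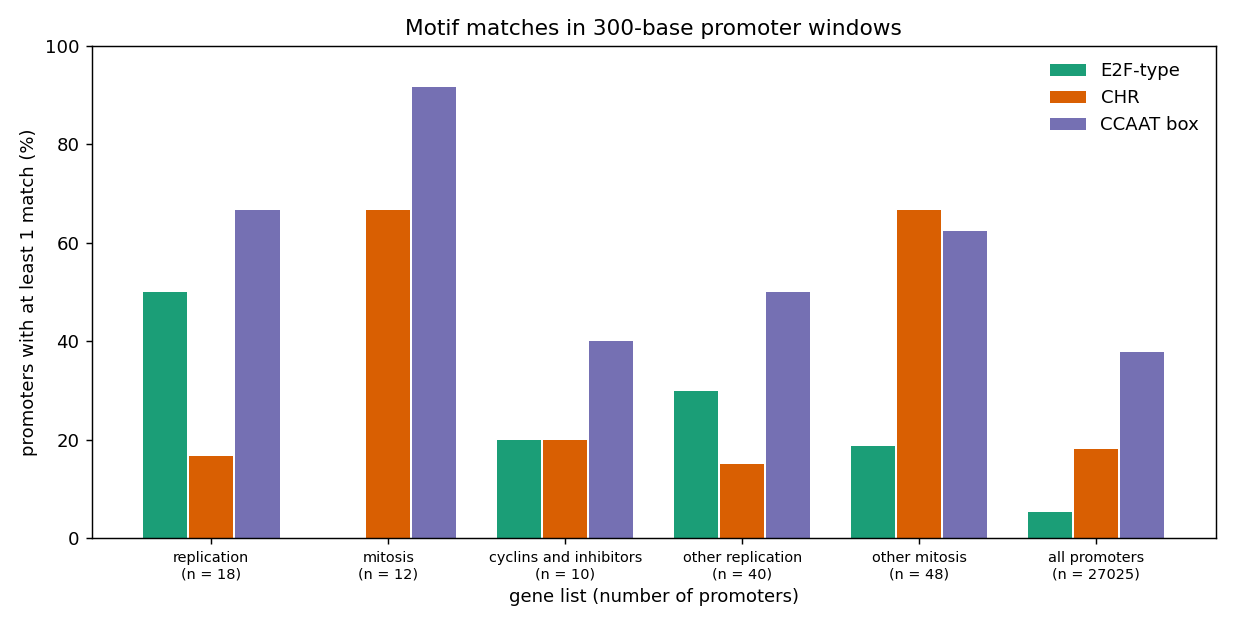
Share of 300-base promoter windows with at least 1 match to the E2F-type, CHR or CCAAT motif (y axis, percent) in the 3 member classes, in 2 lists of other genes and in all promoters (x axis, with the number of windows). E2F-type matches occur in 9 of 18 windows of the replication class and CHR matches in 8 of 12 of the mitotic class, against 5.27% and 18.1% of all promoters.

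Values are FPKM, which scale the reads of a gene by its length and by the depth of the library, as deposited. Depth recovered from the spacing of low values ran from 15843430 to 19903080 reads per library. In a gene of 1 kb, 3 reads gave 0.151 to 0.189 FPKM, a limit for counting error only. Stat3 had 8.03 and 9.69 FPKM in STAT3-KO cells with IL-33, 49.0 and 55.3 in WT cells with IL-33, 15.3 and 16.0 in STAT3-KO control cells and 41.7 and 50.7 in WT control cells. It was lower in all 4 STAT3-KO libraries than in any WT library, as labelled (-2.43 ± 0.15, adjusted p = 2.22e-05 for STAT3-KO against WT with IL-33; -1.50 ± 0.15, adjusted p = 0.00771 in control).

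All 14 ILC2 markers were measured in every library, but their levels moved with the groups. Their summed FPKM was 3841 to 4201 in STAT3-KO cells with IL-33, 10572 to 11352 in WT cells with IL-33, 3675 to 3699 in STAT3-KO control cells and 3740 to 3886 in WT control cells. Thy1, a surface marker of ILC2s, had 2.56 and 2.37 FPKM in STAT3-KO cells with IL-33, 31.7 and 38.01 in WT cells with IL-33, 19.6 and 21.3 in STAT3-KO control cells and 37.2 and 41.9 in WT control cells. Il1rl1, the IL-33 receptor, had 78.5 and 92.4 FPKM in STAT3-KO cells with IL-33, 350.1 and 369.5 in WT cells with IL-33, 389 and 359 in STAT3-KO control cells and 231 and 424 in WT control cells. Both were lowest in STAT3-KO cells with IL-33. Other ILC2 markers went both ways in STAT3-KO cells. Il2ra, Il5, Il13 and Areg were higher with IL-33 than in control, Il5 at 1023 and 818 against 49.2 and 42.4 FPKM. Gata3, Il7r, Rora, Id2, Klrg1, Icos, Kit and Ptprc were lower, Il7r at 69.6 and 78.4 against 544 and 581 FPKM. Of the 6 mast cell and basophil markers 3 were in the table, and they moved apart. Cpa3, a mast cell protease, had 7.52 and 7.49 FPKM in STAT3-KO cells with IL-33, 34.6 and 41.8 in WT cells with IL-33, 111 and 140.4 in STAT3-KO control cells and 326 and 299 in WT control cells. Mcpt8, a basophil protease, had 92.8 and 114 FPKM in WT cells with IL-33 and at most 0.25 in any other library, and Cma1 was below 1 FPKM throughout. The sum of 8 T cell markers was 5.23 to 7.65 FPKM in STAT3-KO cells with IL-33, 11.5 to 13.8 in WT cells with IL-33, 14.6 to 16.1 in STAT3-KO control cells and 23.0 to 24.0 in WT control cells. Lck and Cd3g carried it, and the other 6, Cd3e among them, were below 1 FPKM in every library. The sum of 5 NK cell and ILC1 markers was 4.44 to 4.98 FPKM in STAT3-KO cells with IL-33, 2.51 to 2.61 in WT cells with IL-33, 26.7 to 29.3 in STAT3-KO control cells and 8.78 to 10.5 in WT control cells. Tbx21 and Prf1 carried it, and Ncr1, Klrb1c and Eomes were below 1 FPKM throughout. The sum of 2 B cell markers was 19.6 to 21.9 FPKM in STAT3-KO cells with IL-33, 13.1 to 13.9 in WT cells with IL-33, 3.27 to 4.13 in STAT3-KO control cells and 7.92 to 8.15 in WT control cells, nearly all of it Cd79b. Over all 8 libraries, the sums ran from 0.259 to 4.52 FPKM for ILC3 markers, 0.312 to 6.78 for macrophages and monocytes, 2.30 to 7.28 for dendritic cells, 0 to 0.907 for granulocytes, 21.2 to 29.6 for epithelial and stromal cells and 3.72 to 18.9 for red blood cells. The part of these levels, or of such cells, in the results below was not tested. In bulk RNA, fewer cycling cells and less cell cycle mRNA per cell cannot be told apart.

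Of the 53 members, 51 reached 1 FPKM in at least 2 libraries and were tested. All differences are of log2(FPKM + 1), with the standard error of a limma fit over all tested genes, and a gene was called at an adjusted p below 0.05. The scale understates changes of genes with low values. With IL-33, 34 of 51 members were lower in STAT3-KO than in WT cells and 2 were higher, against 16.4% of all 11877 tested genes lower and 16.3% higher; the median difference of the 51 was -1.01, against 0.01 over all genes. At an unadjusted p below 0.05, 21.4% of all genes were lower and 22.0% higher there. In control cells 2 members were called lower and 0 higher, against 0.210% and 0.253% of all genes, and at an unadjusted p below 0.05 the counts were 17 lower and 3 higher, against 4.27% and 5.04% of all genes. Leaving out 1 library gave 0 to 2 calls there. IL-33 raised 23 members in WT cells and lowered 2, against 14.5% and 21.6% of all genes, with a median of 0.51 against -0.14. At an unadjusted p below 0.05, 18.4% of all genes were higher and 28.5% lower in this comparison. Without WT IL-33 replicate 2 the WT count was 15 members. The same cytokine raised 13 members in STAT3-KO cells and lowered 16, against 20.4% and 30.6% of all genes, with a median of -0.16 against -0.18. The IL-33 response of 16 members was lower in STAT3-KO than in WT cells and that of 1 was higher, against 8.43% and 6.72% of all genes. These comparisons share libraries and are not independent of each other.

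The split of the STAT3-KO response depended on scaling, and IL-33 also shifted the median of all genes. Rescaling by median of ratios brought that median from -0.18 to 0 and gave 17 members higher and 13 lower, against 26.8% and 23.2% of all genes. Rescaling to equal sums moved the median to -0.30 and gave 9 members higher and 19 lower, against 16.7% and 35.5% of all genes. The split over all genes thus moved in the same direction as that of the members. Calls not made under median of ratios were the falls of Ccna2, Ccnb2 and Cenpe in STAT3-KO cells and the differences of response of Cdk6 and Mcm6. Those not made under equal sums were the rises of Cdc20, Cdk4, Gins2 and Rrm2 in STAT3-KO cells and of Ccne2 and Mcm7 in WT cells. In WT cells, median-of-ratios rescaling gave 31 members higher and 2 lower, against 19.6% and 15.8% of all genes. The STAT3-KO against WT difference with IL-33 had 34 lower and 2 higher under median of ratios, against 16.5% and 17.5% of all genes. Under equal sums it had 35 lower and 2 higher, against 18.2% and 12.7%.

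**Figure D2:**
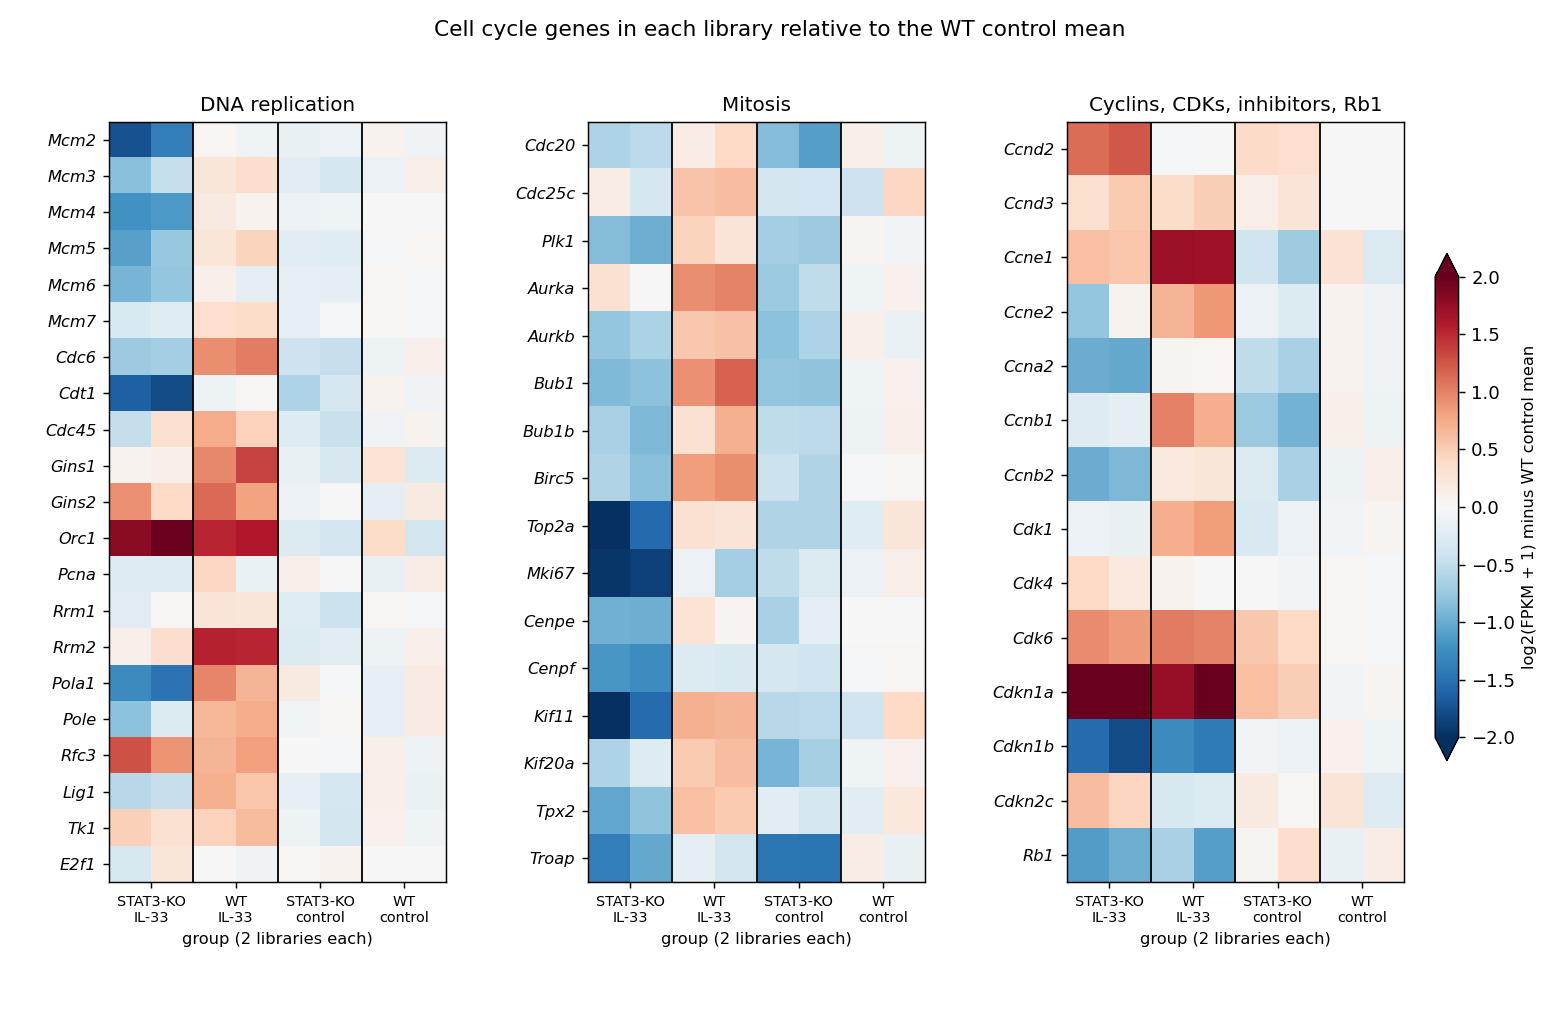
Each of the 51 tested members (rows) in each of the 8 libraries (columns, 2 per group), as log2(FPKM + 1) minus the WT control mean (colour, red above and blue below). The median over the mitotic class was -0.87 in both STAT3-KO libraries with IL-33, 0.49 and 0.55 in WT cells with IL-33, and -0.63 and -0.57 in STAT3-KO control cells.

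Replication genes were lower in IL-33-treated STAT3-KO cells than in IL-33-treated WT cells for 13 of 21 tested members and higher for 0, with a median difference of -0.94. Over all genes, 16.4% were lower and 16.3% higher in this comparison. At an unadjusted p below 0.05 the limma counts were 15 and 0, against 21.4% and 22.0% of all genes. In control cells 0 of the 21 were called, and the median difference was -0.23. At an unadjusted p below 0.05, 3 were lower and 0 higher there, against 4.27% and 5.04% of all genes. IL-33 raised 10 and lowered 0 in WT cells (12 and 0 unadjusted), against 14.5% and 21.6% of all genes. It raised 5 and lowered 6 in STAT3-KO cells, against 20.4% and 30.6% of all genes. The response itself was lower in STAT3-KO cells for 10 members and higher for 0, against 8.43% and 6.72% of all genes.

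Licensing comes first in the cycle. Mcm2, a subunit of the helicase, had 11.3 and 14.9 FPKM in STAT3-KO cells with IL-33, 41.1 and 38.03 in WT cells with IL-33, 36.1 and 36.8 in STAT3-KO control cells and 42.1 and 38.4 in WT control cells. Both STAT3-KO libraries with IL-33 lay far below the other 6. IL-33 lowered Mcm2 in STAT3-KO cells (-1.42 ± 0.14, adjusted p = 0.000102), while the difference in WT cells was -0.02 ± 0.14, and the responses differed (-1.40 ± 0.20, adjusted p = 0.00409). Mcm4 had 11.9 and 12.5 FPKM in STAT3-KO cells with IL-33, 32.9 and 30.6 in WT cells with IL-33, 26.8 and 27.4 in STAT3-KO control cells and 29.1 and 28.9 in WT control cells. Here again the STAT3-KO libraries with IL-33 were the lowest, with a fall in STAT3-KO cells (-1.09 ± 0.11, adjusted p = 0.000113) and a difference between responses of -1.21 ± 0.16. Mcm5 had 21.3 and 27.1 FPKM in STAT3-KO cells with IL-33, 55.5 and 63.5 in WT cells with IL-33, 39.7 and 39.2 in STAT3-KO control cells and 45.1 and 48.1 in WT control cells. It fell in STAT3-KO cells (-0.69 ± 0.14, adjusted p = 0.00346), and the WT libraries with IL-33 were the highest. Mcm6 had 39.3 and 43.9 FPKM in STAT3-KO cells with IL-33, 81.4 and 66.7 in WT cells with IL-33, 67.7 and 66.9 in STAT3-KO control cells and 76.8 and 75.1 in WT control cells. It fell in STAT3-KO cells (-0.68 ± 0.12, adjusted p = 0.00201), and WT libraries with and without IL-33 overlapped. Mcm3 was lower in STAT3-KO than in WT cells with IL-33, at 40.8 and 53.3 against 86.5 and 93.9 FPKM (-0.94 ± 0.15, adjusted p = 0.0019), and so was Mcm7, at 22.1 and 23.2 against 35.2 and 36.1 FPKM (-0.63 ± 0.11, adjusted p = 0.0035). Mcm7 was also raised by IL-33 in WT cells (0.35 ± 0.11, adjusted p = 0.0376), but 72.8% of its transcript is matched by another gene, Gm5487.

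The loaders of the helicase did not move as one. Cdc6 had 7.10 and 7.34 FPKM in STAT3-KO cells with IL-33, 24.5 and 26.3 in WT cells with IL-33, 9.05 and 8.70 in STAT3-KO control cells and 11.5 and 13.4 in WT control cells. WT cells with IL-33 stood well above all other libraries. IL-33 raised Cdc6 in WT cells (0.98 ± 0.14, adjusted p = 0.000996) but its difference in STAT3-KO cells was -0.27 ± 0.14, and the responses differed by -1.24 ± 0.19, adjusted p = 0.00533. A share of 33% of the Cdc6 transcript is matched by Gm9430. Cdt1, the partner of Cdc6 in loading, had 4.79 and 4.19 FPKM in STAT3-KO cells with IL-33, 15.7 and 17.2 in WT cells with IL-33, 10.6 and 13.2 in STAT3-KO control cells and 17.9 and 16.0 in WT control cells. The STAT3-KO libraries with IL-33 were the lowest. IL-33 lowered Cdt1 there (-1.23 ± 0.16, adjusted p = 0.000358), against -0.04 ± 0.16 in WT cells, with a difference of responses of -1.19 ± 0.22, adjusted p = 0.0105. Orc1, the large subunit of the origin recognition complex, had 12.3 and 13.8 FPKM in STAT3-KO cells with IL-33, 9.91 and 10.6 in WT cells with IL-33, 2.15 and 1.97 in STAT3-KO control cells and 3.94 and 1.94 in WT control cells. All 4 libraries with IL-33 exceeded all 4 without it, and the increase was 2.20 ± 0.24, adjusted p = 0.00016 in STAT3-KO cells and 1.56 ± 0.24, adjusted p = 0.0016 in WT cells; the difference of responses was 0.64 ± 0.34, adjusted p = 0.229.

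The members that activate the helicase had low levels. Gins1, a GINS subunit, had 5.54 and 5.68 FPKM in STAT3-KO cells with IL-33, 11.1 and 14.9 in WT cells with IL-33, 4.59 and 3.95 in STAT3-KO control cells and 6.53 and 4.12 in WT control cells. It rose in WT cells (1.16 ± 0.22, adjusted p = 0.00464) and was lower in STAT3-KO than in WT cells with IL-33 (-1.07 ± 0.22, adjusted p = 0.00722). Gins2, another GINS subunit, was raised by IL-33 in STAT3-KO cells, at 4.07 and 2.54 against 1.48 and 1.70 FPKM (0.71 ± 0.25, adjusted p = 0.0396), and in WT cells, at 4.90 and 3.72 against 1.37 and 2.06 FPKM (0.97 ± 0.25, adjusted p = 0.0159). The exons of Gins2 overlap those of Gse1 on the opposite strand over 67.3% of their length, so their reads cannot be told apart without strand. Cdc45, which binds the helicase with GINS, had 1.77 and 3.82 FPKM in STAT3-KO cells with IL-33, 5.40 and 4.31 in WT cells with IL-33, 2.22 and 1.83 in STAT3-KO control cells and 2.65 and 3.05 in WT control cells. It passed no test.

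Among the enzymes that copy DNA, Pola1, the catalytic subunit of the priming polymerase, had 0.585 and 0.377 FPKM in STAT3-KO cells with IL-33, 6.53 and 5.12 in WT cells with IL-33, 3.36 and 2.72 in STAT3-KO control cells and 2.41 and 3.32 in WT control cells. The STAT3-KO libraries with IL-33 were below 1 FPKM and the WT libraries with IL-33 the highest. Pola1 fell with IL-33 in STAT3-KO cells (-1.45 ± 0.22, adjusted p = 0.000876) and rose in WT cells (0.82 ± 0.22, adjusted p = 0.0188), and the responses differed by -2.27 ± 0.31, adjusted p = 0.00317. Pole, the leading-strand polymerase, had 0.143 and 0.681 FPKM in STAT3-KO cells with IL-33, 2.21 and 2.40 in WT cells with IL-33, 0.954 and 1.05 in STAT3-KO control cells and 0.801 and 1.28 in WT control cells. Its difference between the genotypes with IL-33 was called (-1.25 ± 0.25, adjusted p = 0.006), and so was the difference of responses (-1.24 ± 0.35, adjusted p = 0.0489), though neither response alone was. Lig1, which joins Okazaki fragments, had 17.8 and 19.0 FPKM in STAT3-KO cells with IL-33, 44.1 and 39.8 in WT cells with IL-33, 23.7 and 20.8 in STAT3-KO control cells and 29.2 and 24.2 in WT control cells. It rose in WT cells (0.64 ± 0.14, adjusted p = 0.00788), was lower in STAT3-KO cells with IL-33 (-1.15 ± 0.14, adjusted p = 0.00054) and differed in its response (-0.90 ± 0.19, adjusted p = 0.0183). Rfc3, a subunit of the clamp loader, was higher with IL-33 in STAT3-KO cells, at 20.8 and 15.7 against 8.05 and 7.77 FPKM (1.10 ± 0.17, adjusted p = 0.00107), and in WT cells, at 13.3 and 14.9 against 8.75 and 7.24 FPKM (0.75 ± 0.17, adjusted p = 0.0101). Pcna, the sliding clamp, was between 3.45 and 6.07 FPKM in all 8 libraries and passed no test; 51.4% of its transcript is matched by a pseudogene, Pcna-ps2. Fen1, the flap nuclease of Okazaki fragments, was not tested: it had 1 to 7 reads per library, and 78.8% of its exons overlap Gm10143 on the opposite strand.

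Enzymes of nucleotide supply rose in both genotypes or passed no test. Rrm2, the regulated subunit of ribonucleotide reductase, had 20.8 and 24.6 FPKM in STAT3-KO cells with IL-33, 57.7 and 56.6 in WT cells with IL-33, 15.6 and 16.4 in STAT3-KO control cells and 17.8 and 20.5 in WT control cells. The WT libraries with IL-33 were the highest, and the STAT3-KO libraries with IL-33 lay just above those of WT control. The rise was 0.48 ± 0.13, adjusted p = 0.0152 in STAT3-KO cells and 1.53 ± 0.13, adjusted p = 7.03e-05 in WT cells, and the responses differed by -1.05 ± 0.18, adjusted p = 0.00848. A share of 27.9% of the Rrm2 transcript is matched by other genes. Rrm1, its large subunit, was between 25.4 and 41.6 FPKM in every library and passed no test. Tk1, thymidine kinase of the salvage pathway, rose in STAT3-KO cells, at 12.97 and 11.5 against 8.34 and 6.77 FPKM (0.63 ± 0.16, adjusted p = 0.011), and in WT cells, at 12.9 and 14.5 against 9.72 and 8.43 FPKM (0.55 ± 0.16, adjusted p = 0.0279). E2f1, the transcription factor that drives S phase genes, was between 4.04 and 6.42 FPKM and passed no test.

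Several of these calls were lost when a single library was left out, which need not mean that 1 library carried the difference. Some were lost with the difference unchanged, on leaving out a library outside the comparison. Gins2 in STAT3-KO cells stayed at 0.71 without either WT IL-33 library, and Mcm7 in WT cells at 0.35 without either STAT3-KO control library. In the STAT3-KO response the calls of Gins2, Rrm2 and Tk1 were each lost when 1 or more single libraries of STAT3-KO or of WT with IL-33 were left out (differences 0.36 to 0.77, adjusted p 0.0519 to 0.235). In the WT response those of Gins2, Lig1, Mcm7, Pola1, Rfc3 and Tk1 were each lost on leaving out 1 or more single libraries of WT or of STAT3-KO control (0.32 to 0.81, adjusted p 0.0507 to 0.146). The call of Gins1 between the genotypes with IL-33 was lost without WT IL-33 replicate 2 (-0.88, adjusted p = 0.064). The differences of response of Lig1, Mcm6 and Pole were lost on leaving out 1 or more of 7 single libraries, all but STAT3-KO IL-33 replicate 2 (-1.28 to -0.50, adjusted p 0.0501 to 0.141).

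A wider list held 47 other replication genes, of which 45 were tested. IL-33-treated STAT3-KO cells had 21 lower and 2 higher than IL-33-treated WT cells (median -0.56), against 16.4% and 16.3% of all genes. In control cells 0 were called by limma. At an unadjusted p below 0.05, 3 were lower and 0 higher there, against 4.27% and 5.04% of all genes. IL-33 raised 13 and lowered 3 in WT cells, against 14.5% and 21.6% of all genes. It raised 4 and lowered 14 in STAT3-KO cells, against 20.4% and 30.6% of all genes. Dnmt1, the methyltransferase that copies DNA methylation, had 4.53 and 4.90 FPKM in STAT3-KO cells with IL-33, 27.8 and 28.1 in WT cells with IL-33, 28.0 and 27.5 in STAT3-KO control cells and 22.6 and 27.8 in WT control cells. The STAT3-KO libraries with IL-33 were far below the other 6, which overlapped (-2.33 ± 0.13, adjusted p = 5.83e-06 for the STAT3-KO response and -2.48 ± 0.19, adjusted p = 0.00032 for the difference of responses). Slbp, which binds the stem-loop of histone mRNAs, was lower in STAT3-KO than in WT cells with IL-33, at 25.4 and 26.3 against 54.1 and 50.7 FPKM (-0.99 ± 0.11, adjusted p = 0.0003). Uhrf1, a partner of Dnmt1, rose in WT cells (0.76 ± 0.15, adjusted p = 0.00566). Rpa2, a subunit of the single-strand binding complex, and Chaf1b, of a histone chaperone, fell in WT cells (-0.60 ± 0.10 and -0.58 ± 0.16).

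**Figure D3:**
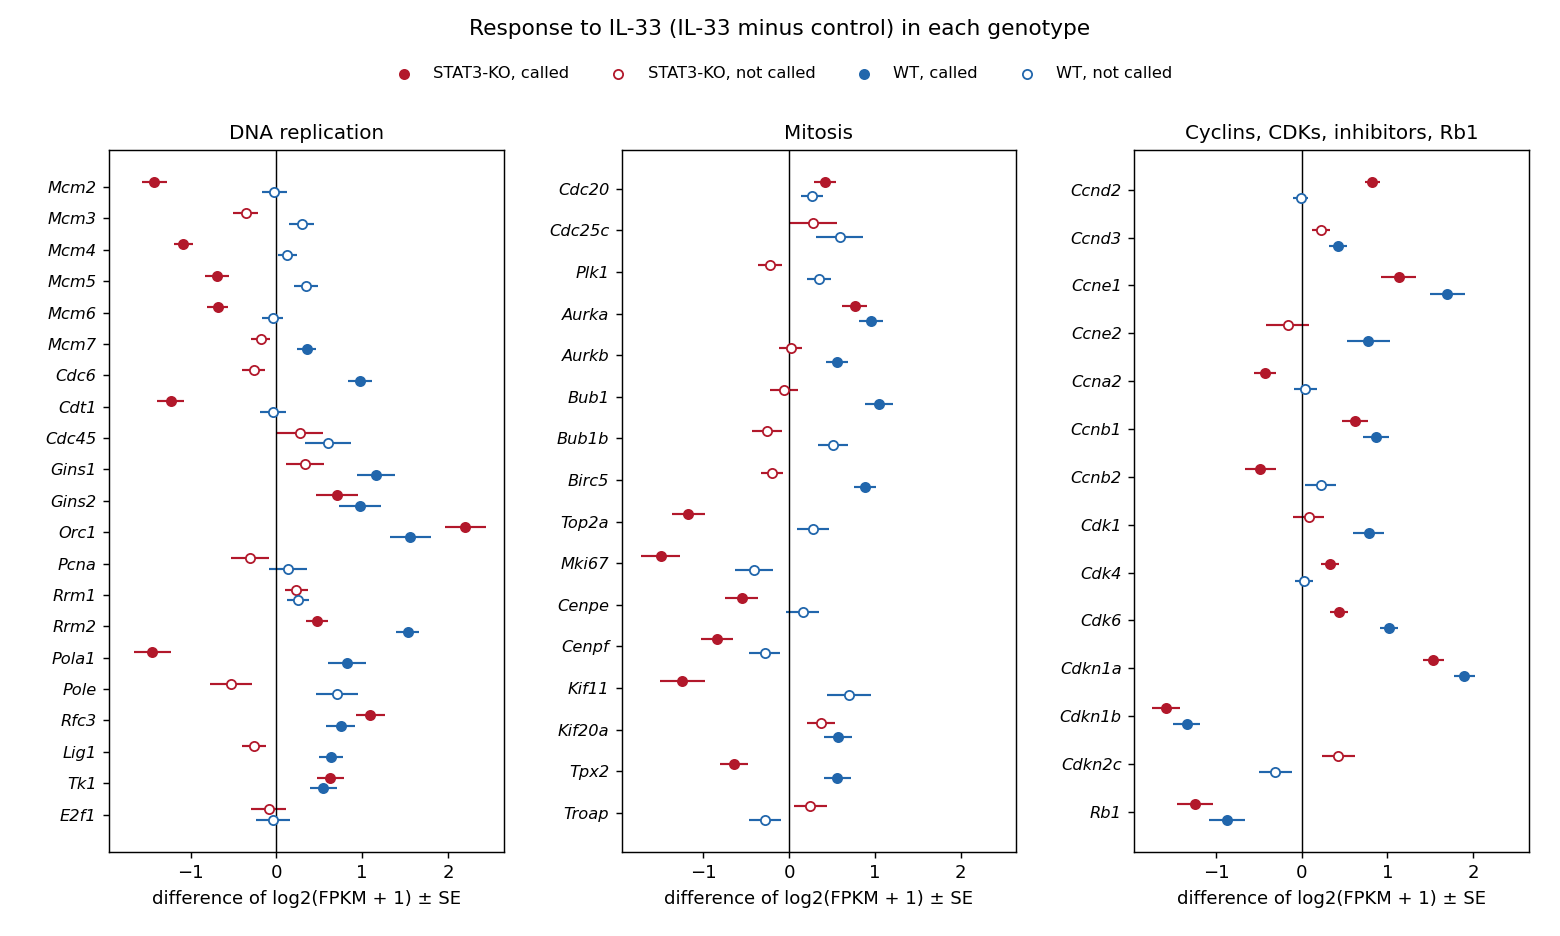
Response to IL-33 (IL-33 minus control, difference of log2(FPKM + 1), x axis) of each tested member (rows) in STAT3-KO cells (red) and WT cells (blue), with bars of 1 standard error. Filled points were called and open points were not; 13 members were raised and 16 lowered in STAT3-KO cells, and 23 raised and 2 lowered in WT cells.

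Mitotic genes formed the class with the most calls between the genotypes. With IL-33, 15 of 16 were lower in STAT3-KO than in WT cells and 0 were higher, with a median difference of -1.27. The shares over all genes were 16.4% lower and 16.3% higher. At an unadjusted p below 0.05 all 16 were lower, against 21.4% of all genes. In control cells each of the 16 also had a lower mean in STAT3-KO than in WT cells (median -0.58). However, only 2 were called, against 0.210% of all genes called lower. At an unadjusted p below 0.05, 10 were lower, against 4.27% of all genes. IL-33 raised 6 and lowered 0 in WT cells (9 and 0 unadjusted), against 14.5% and 21.6% of all genes. It raised 2 and lowered 6 in STAT3-KO cells, against 20.4% and 30.6% of all genes. The response was lower in STAT3-KO cells for 5 and higher for 0, against 8.43% and 6.72% of all genes. The 6 genes lowered in STAT3-KO cells (Cenpe, Cenpf, Kif11, Mki67, Top2a and Tpx2) have 4677 to 15433 bases of merged exons. The 2 raised there, Aurka and Cdc20, have 2531 and 1868 bases. In the third class, Cdk6 and Ccnd2, with 13989 and 9409 bases, were raised. The part of transcript length in these responses was not tested.

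Kif11, the motor that pushes spindle poles apart, had 4.48 and 6.84 FPKM in STAT3-KO cells with IL-33, 36.3 and 35.4 in WT cells with IL-33, 14.4 and 14.6 in STAT3-KO control cells and 16.2 and 29.0 in WT control cells. The STAT3-KO libraries with IL-33 were the lowest and the WT libraries with IL-33 the highest, with the WT control libraries spread widely between them. With IL-33 the difference of STAT3-KO from WT was -2.49 ± 0.26, adjusted p = 0.000279, IL-33 lowered Kif11 in STAT3-KO cells (-1.24 ± 0.26, adjusted p = 0.00464), and the responses differed by -1.94 ± 0.37, adjusted p = 0.0117. The last call missed the threshold when genes with low values were tested too (adjusted p = 0.0501). Top2a had 10.3 and 14.4 FPKM in STAT3-KO cells with IL-33, 54.6 and 53.03 in WT cells with IL-33, 28.8 and 28.8 in STAT3-KO control cells and 37.2 and 52.5 in WT control cells. It was lower in STAT3-KO than in WT cells with IL-33 (-2.06 ± 0.19, adjusted p = 0.000162), fell with IL-33 in STAT3-KO cells (-1.18 ± 0.19, adjusted p = 0.00131) and differed in its response (-1.45 ± 0.27, adjusted p = 0.0106), while WT libraries with IL-33 lay just above the higher WT control library. Tpx2, which targets Aurora A to the spindle, had 16.7 and 19.8 FPKM in STAT3-KO cells with IL-33, 54.5 and 51.4 in WT cells with IL-33, 30.6 and 27.5 in STAT3-KO control cells and 30.6 and 41.2 in WT control cells. It fell in STAT3-KO cells (-0.64 ± 0.16, adjusted p = 0.0102) and rose in WT cells (0.56 ± 0.16, adjusted p = 0.0247), with a difference of responses of -1.20 ± 0.23, adjusted p = 0.011. Mki67, the source of the Ki-67 antigen of cycling cells, had 1.13 and 1.25 FPKM in STAT3-KO cells with IL-33, 6.52 and 4.05 in WT cells with IL-33, 4.73 and 5.66 in STAT3-KO control cells and 6.57 and 7.81 in WT control cells. IL-33 lowered it in STAT3-KO cells (-1.50 ± 0.22, adjusted p = 0.000857), and the WT difference was -0.41 ± 0.22.

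The next genes act in kinase signalling and the spindle checkpoint. Bub1, a spindle checkpoint kinase, had 3.94 and 4.20 FPKM in STAT3-KO cells with IL-33, 16.2 and 19.8 in WT cells with IL-33, 4.32 and 4.24 in STAT3-KO control cells and 7.60 and 8.71 in WT control cells. All 4 STAT3-KO libraries lay between 3.94 and 4.32 FPKM, and the WT libraries with IL-33 were the highest. It rose in WT cells (1.05 ± 0.16, adjusted p = 0.00156), and the responses differed by -1.11 ± 0.23, adjusted p = 0.0148. Birc5, survivin of the chromosomal passenger complex, had 27.8 and 23.4 FPKM in STAT3-KO cells with IL-33, 77.1 and 82.7 in WT cells with IL-33, 31.3 and 27.7 in STAT3-KO control cells and 41.7 and 43.9 in WT control cells. The WT libraries with IL-33 were the highest, with a rise in WT cells (0.89 ± 0.12, adjusted p = 0.00105) and a difference of responses of -1.09 ± 0.18, adjusted p = 0.00656. Aurka, the centrosomal Aurora kinase, had 37.7 and 30.2 FPKM in STAT3-KO cells with IL-33, 58.6 and 61.4 in WT cells with IL-33, 17.8 and 21.1 in STAT3-KO control cells and 28.7 and 32.2 in WT control cells. It rose with IL-33 in STAT3-KO cells (0.77 ± 0.14, adjusted p = 0.00275) and in WT cells (0.96 ± 0.14, adjusted p = 0.00147), and was lower in STAT3-KO than in WT cells with IL-33 (-0.81 ± 0.14, adjusted p = 0.0035). Aurkb, the kinase of the passenger complex, had 24.4 and 27.0 FPKM in STAT3-KO cells with IL-33 and 61.8 and 63.8 in WT cells with IL-33 (-1.26 ± 0.13, adjusted p = 0.00029); its rise in WT cells was 0.56 ± 0.13, adjusted p = 0.0119. Plk1, the kinase of mitotic entry, had 7.45 and 6.76 against 19.9 and 17.3 FPKM in the same groups (-1.28 ± 0.14, adjusted p = 0.000354), and the checkpoint kinase Bub1b had 8.71 and 7.12 against 17.8 and 23.9 FPKM (-1.28 ± 0.18, adjusted p = 0.00111).

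Cdc20, the activator of the anaphase-promoting complex, had 61.1 and 65.4 FPKM in STAT3-KO cells with IL-33, 104 and 124 in WT cells with IL-33, 51.1 and 43.2 in STAT3-KO control cells and 101 and 88.1 in WT control cells. WT libraries were above STAT3-KO libraries with and without IL-33, and the genotypes differed with IL-33 (-0.84 ± 0.13, adjusted p = 0.00203) and in control (-0.99 ± 0.13, adjusted p = 0.0204); IL-33 raised it in STAT3-KO cells (0.42 ± 0.13, adjusted p = 0.0276). Troap, a trophinin-associated protein that acts at the spindle, had 3.28 and 4.52 FPKM in STAT3-KO cells with IL-33, 8.74 and 7.71 in WT cells with IL-33, 3.10 and 3.08 in STAT3-KO control cells and 11.4 and 9.12 in WT control cells. It too was lower in STAT3-KO cells with IL-33 (-0.92 ± 0.19, adjusted p = 0.0069) and in control (-1.45 ± 0.19, adjusted p = 0.0192). The control calls of both genes were lost on leaving out 1 or more single libraries among the controls and WT with IL-33, with differences of -1.45 to -0.87 and adjusted p of 0.0509 to 0.224. Cenpe, a kinetochore motor, was lower in STAT3-KO than in WT cells with IL-33, at 3.85 and 3.81 against 10.4 and 8.80 FPKM (-1.13 ± 0.19, adjusted p = 0.00269), and fell with IL-33 in STAT3-KO cells (-0.55 ± 0.19, adjusted p = 0.0372). Cenpf, a kinetochore protein of G2 cells, had 0.676 and 0.576 against 2.11 and 2.06 FPKM (-0.93 ± 0.18, adjusted p = 0.00604) and fell likewise (-0.84 ± 0.18, adjusted p = 0.00577). Kif20a, a motor of cytokinesis, had 12.5 and 16.4 against 28.8 and 30.8 FPKM (-1.01 ± 0.16, adjusted p = 0.00241) and rose with IL-33 in WT cells (0.57 ± 0.16, adjusted p = 0.0258), but 29.3% of its exons overlap Cdc23 on the opposite strand. Cdc25c, the phosphatase that activates Cdk1, had 5.97 and 3.97 FPKM in STAT3-KO cells with IL-33, 8.36 and 8.61 in WT cells with IL-33, 3.89 and 3.82 in STAT3-KO control cells and 3.71 and 7.41 in WT control cells. It was the 1 mitotic member that was not called between the genotypes with IL-33 (-0.69 ± 0.28, adjusted p = 0.0911).

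Calls of mitotic genes that were lost on leaving out 1 library were those of Cdc20, Cenpe and Tpx2 in the STAT3-KO response (STAT3-KO libraries or WT libraries with IL-33; -0.57 to 0.47, adjusted p 0.0511 to 0.261). In the WT response they were Aurkb, Kif20a and Tpx2, each on leaving out 1 or more single WT libraries (0.36 to 0.62, adjusted p 0.0532 to 0.135). Troap between the genotypes with IL-33 was lost without WT IL-33 replicate 1 (-0.84, adjusted p = 0.0519), and the difference of responses of Bub1 was lost without WT IL-33 replicate 2 or either STAT3-KO control library (-1.12 to -0.97, adjusted p 0.0517 to 0.0655).

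Among 57 other mitotic genes, 54 of them tested, 45 were lower and 0 higher in STAT3-KO than in WT cells with IL-33 (median -1.03). The shares over all genes were 16.4% and 16.3%. At an unadjusted p below 0.05 the limma counts were 51 lower and 1 higher, against 21.4% and 22.0% of all genes. In control cells 0 were called by limma, 26 were lower and 0 higher at an unadjusted p below 0.05 (4.27% and 5.04% of all genes), and the median was -0.40. IL-33 raised 18 and lowered 0 in WT cells, against 14.5% and 21.6% of all genes. It raised 3 and lowered 17 in STAT3-KO cells, against 20.4% and 30.6% of all genes. Nusap1, a microtubule-binding spindle protein, had 14.5 and 13.2 FPKM in STAT3-KO cells with IL-33, 52.6 and 54.1 in WT cells with IL-33, 26.7 and 22.9 in STAT3-KO control cells and 37.6 and 41.2 in WT control cells. The genotypes differed with IL-33 (-1.87 ± 0.12, adjusted p = 3.33e-05), and the responses by -1.22 ± 0.17, adjusted p = 0.00404. Pbk, a mitotic kinase, had 7.50 and 6.69 against 28.3 and 30.7 FPKM with IL-33 (-1.91 ± 0.13, adjusted p = 3.34e-05). Cenph, a kinetochore protein, and Ube2c, the ubiquitin-conjugating enzyme of the anaphase-promoting complex, rose in WT cells (1.53 ± 0.19 and 0.84 ± 0.14).

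**Figure D4:**
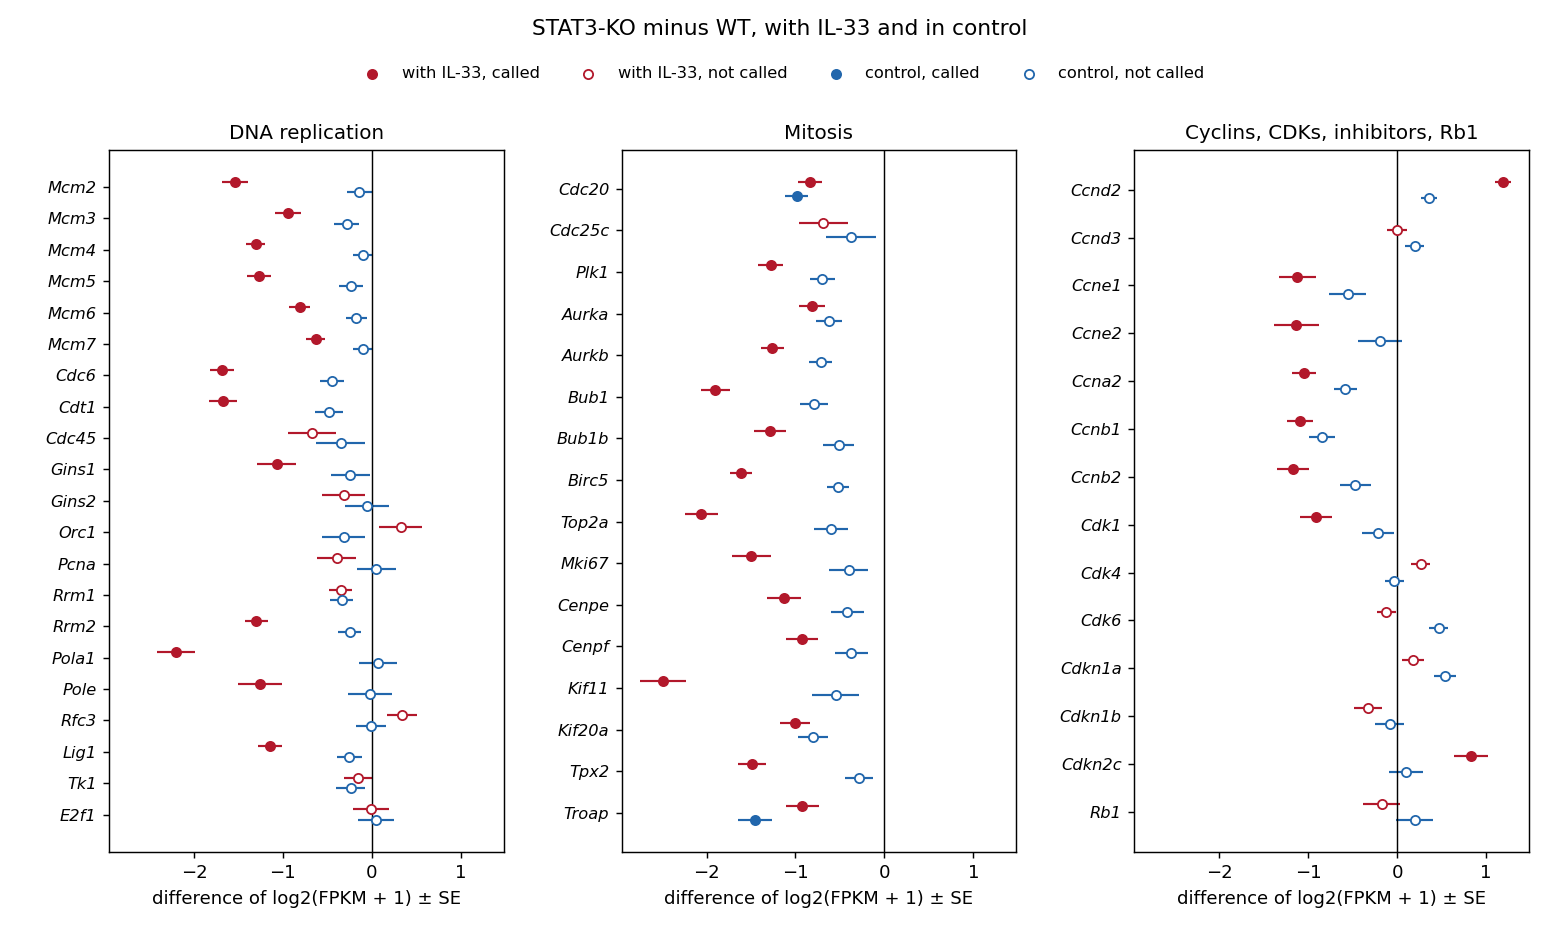
STAT3-KO minus WT (difference of log2(FPKM + 1), x axis) of each tested member (rows) with IL-33 (red) and in control (blue), with bars of 1 standard error; filled points were called. All 16 mitotic members were below 0 in both conditions, with medians of -1.27 with IL-33 and -0.58 in control.

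The cyclins, CDKs and inhibitors did not form 1 pattern. Between the genotypes with IL-33, 6 of 14 tested were lower in STAT3-KO cells and 2 were higher, and the median difference was -0.25. Of all genes, 16.4% were lower and 16.3% higher there. In control cells 0 were called, with 4 lower and 3 higher at an unadjusted p below 0.05 (4.27% and 5.04% of all genes). IL-33 raised 7 and lowered 2 in WT cells, against 14.5% and 21.6% of all genes. It raised 6 and lowered 4 in STAT3-KO cells, against 20.4% and 30.6% of all genes. The response in STAT3-KO cells was higher for Ccnd2 and lower for Cdk6, against 6.72% and 8.43% of all genes.

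D-type cyclins start the cycle by activating Cdk4 and Cdk6. Ccnd2 had 222 and 240.4 FPKM in STAT3-KO cells with IL-33, 99.8 and 101 in WT cells with IL-33, 132 and 128 in STAT3-KO control cells and 101 and 102 in WT control cells. Both STAT3-KO libraries with IL-33 lay far above the other 6. IL-33 raised Ccnd2 in STAT3-KO cells (0.82 ± 0.09, adjusted p = 0.000152), its WT difference was -0.01 ± 0.09, the genotypes differed with IL-33 (1.19 ± 0.09, adjusted p = 5.64e-05), and the responses differed by 0.83 ± 0.12, adjusted p = 0.00482. Ccnd3 rose in WT cells, at 89.8 and 97.8 against 70.2 and 69.0 FPKM (0.42 ± 0.11, adjusted p = 0.0172), though 41.6% of its transcript is matched by a pseudogene, Ccnd3-ps. Ccnd1 was not tested, having 0 to 19 reads per library. Cdk6 had 58.9 and 55.0 FPKM in STAT3-KO cells with IL-33, 62.9 and 60.9 in WT cells with IL-33, 44.1 and 39.9 in STAT3-KO control cells and 30.9 and 29.3 in WT control cells. Both genotypes rose with IL-33, by 0.43 ± 0.11, adjusted p = 0.00959 in STAT3-KO cells and 1.02 ± 0.11, adjusted p = 0.000209 in WT cells, and the rise was smaller in STAT3-KO cells (-0.59 ± 0.15, adjusted p = 0.0335). The control difference between the genotypes, 0.47 ± 0.11, adjusted p = 0.136, was not called. Cdk4 rose in STAT3-KO cells, at 90.4 and 78.1 against 67.6 and 65.8 FPKM (0.33 ± 0.11, adjusted p = 0.0309).

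E, A and B cyclins, which act in S phase and mitosis, were lower in STAT3-KO than in WT cells with IL-33 for all 5 members. Ccne1 had 13.1 and 12.6 FPKM in STAT3-KO cells with IL-33, 29.2 and 29.0 in WT cells with IL-33, 6.05 and 4.64 in STAT3-KO control cells and 10.4 and 6.54 in WT control cells. All 4 IL-33 libraries exceeded their own controls, with rises of 1.13 ± 0.21, adjusted p = 0.00234 in STAT3-KO cells and 1.70 ± 0.21, adjusted p = 0.000476 in WT cells, and WT cells with IL-33 were the highest (-1.12 ± 0.21, adjusted p = 0.00413 for STAT3-KO against WT). Ccne2 had 6.93 and 13.4 FPKM in STAT3-KO cells with IL-33, 20.9 and 24.0 in WT cells with IL-33, 11.7 and 10.3 in STAT3-KO control cells and 13.4 and 12.03 in WT control cells. It rose in WT cells (0.78 ± 0.25, adjusted p = 0.0413) and differed between the genotypes with IL-33 (-1.13 ± 0.25, adjusted p = 0.00992). Ccna2 had 7.53 and 7.29 FPKM in STAT3-KO cells with IL-33, 16.5 and 16.3 in WT cells with IL-33, 10.9 and 9.75 in STAT3-KO control cells and 16.8 and 15.04 in WT control cells. It fell with IL-33 in STAT3-KO cells (-0.43 ± 0.13, adjusted p = 0.0268), where the genotypes differed by -1.05 ± 0.13, adjusted p = 0.000762. Ccnb1 had 16.1 and 17.1 FPKM in STAT3-KO cells with IL-33, 40.4 and 33 in WT cells with IL-33, 11.3 and 9.62 in STAT3-KO control cells and 21.0 and 18.1 in WT control cells. Its IL-33 libraries exceeded the controls of the same genotype, by 0.62 ± 0.15, adjusted p = 0.00901 in STAT3-KO cells and 0.87 ± 0.15, adjusted p = 0.00294 in WT cells, and the STAT3-KO libraries with IL-33 overlapped none of the WT libraries (-1.09 ± 0.15, adjusted p = 0.00112). A share of 51.9% of the Ccnb1 transcript is matched by Gm12856. Ccnb2 had 2.92 and 3.20 FPKM in STAT3-KO cells with IL-33, against 7.97 and 8.31 in WT cells with IL-33 (-1.17 ± 0.18, adjusted p = 0.00173), and fell in STAT3-KO cells (-0.48 ± 0.18, adjusted p = 0.0498). Cdk1, their kinase, had 2.26 and 2.19 against 4.87 and 5.28 FPKM with IL-33 (-0.91 ± 0.18, adjusted p = 0.00557) and rose in WT cells (0.78 ± 0.18, adjusted p = 0.0101).

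The inhibitors p21 and p27 moved in opposite directions with IL-33. Cdkn1a, which encodes p21 and is best known as a target of p53, had 268 and 245 FPKM in STAT3-KO cells with IL-33, 203 and 252 in WT cells with IL-33, 91.1 and 84.9 in STAT3-KO control cells and 57.5 and 62.5 in WT control cells. All 4 IL-33 libraries lay far above all 4 control libraries, and the rise was 1.53 ± 0.12, adjusted p = 3.2e-05 in STAT3-KO cells and 1.89 ± 0.12, adjusted p = 1.84e-05 in WT cells; the genotypes differed by 0.18 ± 0.12 with IL-33, which was not called. Cdkn1b, which encodes p27, had 3.96 and 3.21 FPKM in STAT3-KO cells with IL-33, 5.02 and 4.43 in WT cells with IL-33, 13.02 and 12.4 in STAT3-KO control cells and 14.3 and 12.7 in WT control cells. All 4 IL-33 libraries lay below all control libraries (-1.58 ± 0.16, adjusted p = 0.000105 in STAT3-KO cells and -1.34 ± 0.16, adjusted p = 0.000421 in WT cells). Rb1, the retinoblastoma protein, also fell in both, at 4.04 and 4.52 against 10.3 and 12.9 FPKM in STAT3-KO cells (-1.25 ± 0.21, adjusted p = 0.00156) and 5.97 and 4.07 against 8.79 and 11.1 FPKM in WT cells (-0.87 ± 0.21, adjusted p = 0.0124). Cdkn2c, which encodes p18, was higher in STAT3-KO than in WT cells with IL-33, at 12.2 and 10.5 against 5.82 and 6.02 FPKM (0.83 ± 0.19, adjusted p = 0.0119).

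In the STAT3-KO response, the calls of Ccna2, Ccnb1, Ccnb2, Cdk4 and Cdk6 were each lost on leaving out 1 or more single libraries of STAT3-KO or of WT with IL-33 (-0.53 to 0.52, adjusted p 0.0621 to 0.289). Those of Ccnd3, Ccne2, Cdk1 and Rb1 in WT cells were each lost on leaving out 1 or more single libraries of WT or of STAT3-KO control (-0.72 to 0.87, adjusted p 0.0537 to 0.18). Between the genotypes with IL-33, the call of Ccne2 was lost without WT IL-33 replicate 2 (-1.04). That of Cdkn2c was lost without STAT3-KO IL-33 replicate 1 or either WT IL-33 library (0.73 to 0.85). The difference of responses of Cdk6 was lost on leaving out any of 7 single libraries, all but STAT3-KO IL-33 replicate 1 (-0.66 to -0.52, adjusted p 0.0651 to 0.121).

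Among 51 other cell cycle regulators, 48 tested, 17 were lower and 8 higher in STAT3-KO than in WT cells with IL-33 (median -0.12). Of all genes, 16.4% were lower and 16.3% higher there. In control cells 1 was called, and at an unadjusted p below 0.05 the counts were 7 lower and 2 higher (4.27% and 5.04% of all genes). The called gene was Cdkn2b, higher in STAT3-KO cells, which encodes the CDK4 and CDK6 inhibitor p15. Cdkn2b had 259 and 241 FPKM in STAT3-KO cells with IL-33, 62.1 and 73.5 in WT cells with IL-33, 41.4 and 39.6 in STAT3-KO control cells and 15.7 and 17.6 in WT control cells. The 4 groups did not overlap. It rose by 2.60 ± 0.12, adjusted p = 2e-06 in STAT3-KO cells and 1.96 ± 0.12, adjusted p = 1.3e-05 in WT cells, and was higher in STAT3-KO than in WT cells with IL-33 (1.87 ± 0.12, adjusted p = 2.8e-05) and in control (1.24 ± 0.12, adjusted p = 0.00771). Cdkn2d, which encodes p19, had 75.9 and 63.8 FPKM in STAT3-KO cells with IL-33, 171 and 173 in WT cells with IL-33, 76.0 and 78.4 in STAT3-KO control cells and 94.5 and 88.3 in WT control cells. It was highest in WT cells with IL-33, where it rose (0.91 ± 0.11, adjusted p = 0.000437), and its response differed by -1.05 ± 0.15, adjusted p = 0.00418.

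**Figure D5:**
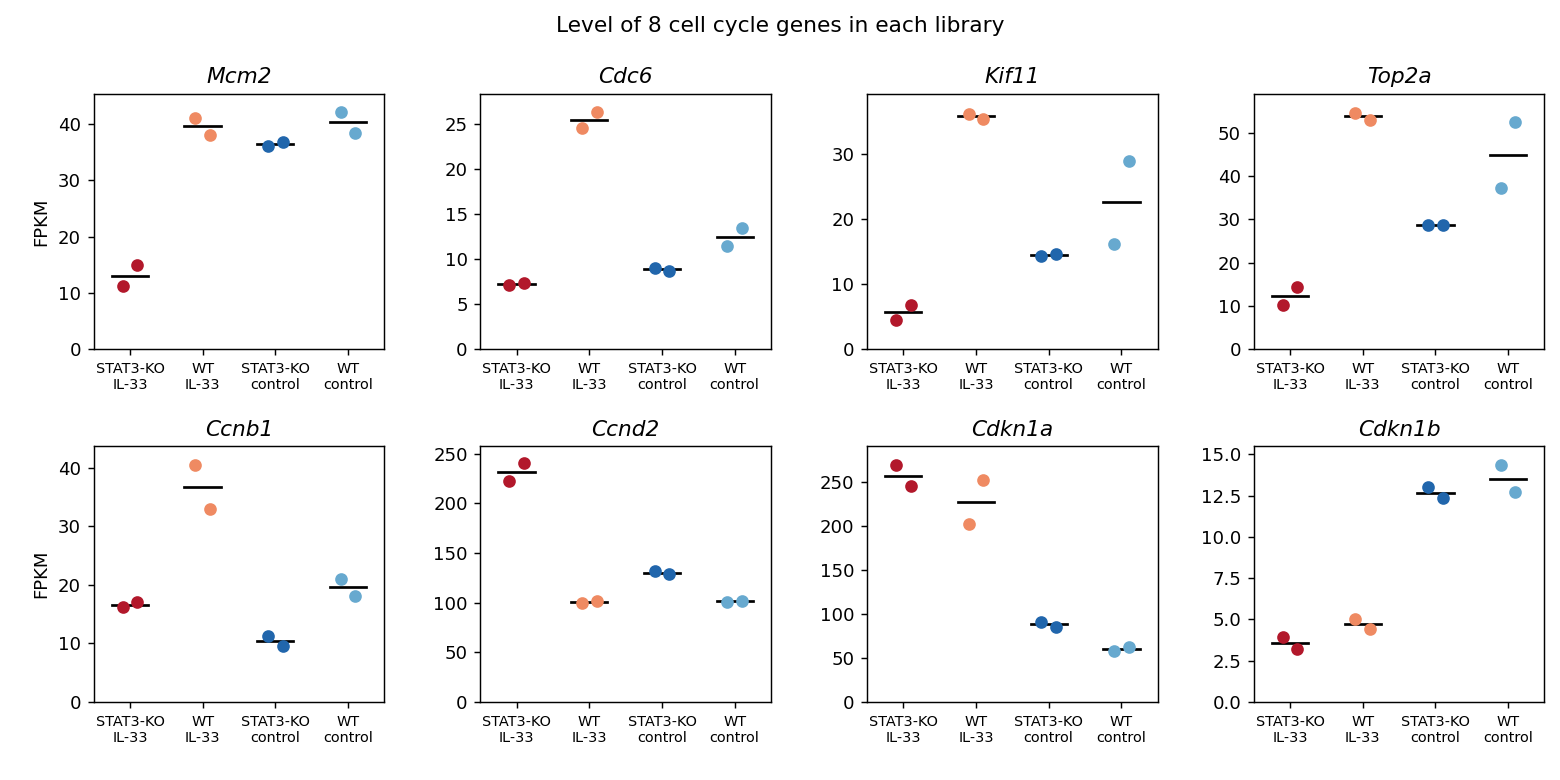
FPKM (y axis, from 0) of 8 members in each library (points) of the 4 groups (x axis), with the group mean (line). Mcm2, Cdc6, Kif11 and Top2a are lowest in STAT3-KO cells with IL-33, Ccnd2 is highest there, and Cdkn1a is high and Cdkn1b low in both groups with IL-33.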

How the data were processed

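RNA from 8 libraries of cultured mouse lung ILC2s, 2 in each of 4 groups, was measured by the authors, who deposited 1 FPKM value per gene and library. Per the submitters' processing notes these came from Bowtie2, RSEM and GRCm38; versions, annotation release and strand are not given in the sources used here. The deposited FPKM values were used as they were; recovered depth is from the spacing of low values (93.5% to 94.6% within 0.02 of a whole read). The members, lists and rules of naming were chosen with earlier results of these data known: all 53 members are named, and for each other list the few genes with the smallest p in each direction. The 11877 genes that reached 1 FPKM in 2 or more libraries were fitted as log2(FPKM + 1) with limma 3.58.1 in R 4.3.3 (1 mean per group, trend in the prior variance, 4 residual degrees of freedom), with two-sided Benjamini-Hochberg adjusted p over all tested genes within each of 5 comparisons. The code was checked on simulated data. Replicates correlated at 0.971 to 0.983, and the variance between them, pooled over genes, was 12.0 to 27.5 times that of counting error. Alternatives were another pseudocount (0.1), no filter, other scalings, the replicate block, no trend, only the groups compared, and each library left out. Near-identical transcripts (BLAST) and overlapping exons are from GENCODE M21; Python 3.11.15 made tables and figures. RSEM gives estimated counts, yet most low values lay near whole reads over the merged exon length, so the counting step is unclear. Genes that share reads may be misassigned.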

Additional observations from a re-analysis of the deposited data

Results flagged for a closer look

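The responses to IL-33 differed between STAT3-KO and WT cells for 17 of the 51 tested members, by a test of the difference itself, and 16 of these had a lower response in STAT3-KO cells. Values are the STAT3-KO minus WT difference of responses in log2(FPKM + 1). In the replication class they were -2.27 for Pola1, -1.40 for Mcm2, -1.24 for Cdc6, -1.24 for Pole, -1.21 for Mcm4, -1.19 for Cdt1, -1.05 for Rrm2, -1.04 for Mcm5, -0.90 for Lig1 and -0.64 for Mcm6. In the mitotic class they were -1.94 for Kif11, -1.45 for Top2a, -1.20 for Tpx2, -1.11 for Bub1 and -1.09 for Birc5. In the third class they were 0.83 for Ccnd2 and -0.59 for Cdk6. Of all tested genes, 8.43% had a lower and 6.72% a higher response in STAT3-KO cells. The cause of these differences was not tested.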

How the results depend on the processing

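No alternative reversed the direction of a member call, but several could not. The replicate block, no trend, no filter, only the groups compared, and leaving out a library outside the comparison leave the difference itself unchanged. Only another pseudocount, other scalings and leaving out a library of the comparison could have reversed a direction. Of 109 calls over the 5 comparisons, 74 held in each leave-one-out fit and 73 in all alternatives. Of 36 calls between the genotypes with IL-33, 32 held in all alternatives, against 18 of 29 in the STAT3-KO response, 12 of 25 in the WT response, 0 of 2 in control and 11 of 17 for the difference of responses. Member calls in control moved to 0 when genes with low values were also tested, to 1 with no trend in the prior variance, and to 0 when only those groups were fitted. Leaving out 1 library gave 15 to 29 calls in WT, 20 to 30 in STAT3-KO, 33 to 39 between the genotypes with IL-33, 0 to 2 in control and 12 to 18 for the difference of responses. The WT count was 15 without WT IL-33 replicate 2. Same-numbered libraries of different groups did not deviate together over all tested genes (correlations -0.06 to 0.04). These correlations cannot decide whether such libraries shared a mouse or culture, and the labels do not say. With the replicate number as a block the counts were 28 for STAT3-KO, 27 for WT, 36 between the genotypes with IL-33, 2 in control and 17 for the difference of responses; this replicate block changed no call count by over 1.5 times. An alternative chosen after seeing the data left out 9 members with near-identical copies or overlapping genes and gave 26, 18, 31, 2 and 15 calls in the same order. With 2 libraries per group, 4 residual degrees of freedom and low depth for Fen1 and Ccnd1, small changes may have been missed.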

Other observations

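Further regulators of proliferation that are no members showed large differences. Mxd1, a repressor that competes with Myc for its partner Max, had 7.02 and 7.44 FPKM in STAT3-KO cells with IL-33, 80.2 and 78.4 in WT cells with IL-33, 7.59 and 6.65 in STAT3-KO control cells and 6.94 and 5.498 in WT control cells. WT cells with IL-33 stood far above the other 6 libraries, and the responses differed by -3.46 ± 0.21, adjusted p = 8.23e-05. Max itself, the partner of Myc and of Mxd1, had 22.8 and 24.4 FPKM in STAT3-KO cells with IL-33, 3.64 and 3.47 in WT cells with IL-33, 15.5 and 14.9 in STAT3-KO control cells and 14.9 and 12.5 in WT control cells. It was lowest in WT cells with IL-33 (-1.69 ± 0.14, adjusted p = 6.1e-05) and raised in STAT3-KO cells (0.61 ± 0.14, adjusted p = 0.00711). Myc, named after its values were seen, had 218 and 225 FPKM in STAT3-KO cells with IL-33, 143 and 157 in WT cells with IL-33, 89.6 and 83.2 in STAT3-KO control cells and 94.6 and 87.0 in WT control cells. It rose by 1.35 ± 0.10, adjusted p = 2.05e-05 in STAT3-KO cells and 0.71 ± 0.10, adjusted p = 0.00095 in WT cells. Mycn, a Myc relative, was listed at 0 in both STAT3-KO libraries with IL-33. It had 2.01 and 0.709 FPKM in WT cells with IL-33, 8.01 and 9.72 in STAT3-KO control cells and 7.47 and 9.62 in WT control cells.

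Gadd45b, a stress-induced growth-arrest gene, had 77.8 and 78.1 FPKM in STAT3-KO cells with IL-33, 40.0 and 48.4 in WT cells with IL-33, 4.60 and 4.39 in STAT3-KO control cells and 5.14 and 3.30 in WT control cells. It rose by 3.84 ± 0.18, adjusted p = 2.32e-06 in STAT3-KO cells and 3.13 ± 0.18, adjusted p = 1.08e-05 in WT cells. Its relatives Gadd45g and Gadd45a were named after their values were seen. Gadd45g had 19.8 and 21.3 FPKM in STAT3-KO cells with IL-33, 100.5 and 134 in WT cells with IL-33, 31.1 and 40.6 in STAT3-KO control cells and 58.7 and 40.2 in WT control cells. Gadd45a was below 1 FPKM in every library. Btg2, an antiproliferative gene, had 170.2 and 187 FPKM in STAT3-KO cells with IL-33, 91.98 and 98.7 in WT cells with IL-33, 235 and 245 in STAT3-KO control cells and 213 and 209 in WT control cells. It fell in WT cells (-1.14 ± 0.09, adjusted p = 5.64e-05). Its relative Btg1, also named after its values were seen, had 7.71 and 7.02 FPKM in STAT3-KO cells with IL-33, 11.4 and 11.02 in WT cells with IL-33, 21.0 and 22.4 in STAT3-KO control cells and 23.8 and 17.6 in WT control cells. Cdc25b, a phosphatase that activates CDKs, had 5.51 and 5.61 FPKM in STAT3-KO cells with IL-33, 18.5 and 15.3 in WT cells with IL-33, 26.5 and 24.6 in STAT3-KO control cells and 30.3 and 34.1 in WT control cells. The responses were -2.01 ± 0.14, adjusted p = 1.46e-05 in STAT3-KO cells and -0.89 ± 0.14, adjusted p = 0.00172 in WT cells.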
